A study of Hordeum vulgare with 8 samples.

Results

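The insertions and deletions (indels) described here change the length of a barley transcript by a multiple of 3 bases, so that within a coding sequence they keep the reading frame. They were chosen as the sites that had passed the authors' filter, had a single other allele and had reference and other alleles whose lengths differed by a multiple of 3. Of 140560 sites in 40344 transcripts, 962 sites in 904 transcripts met this rule, beside 860 passing indels with other length changes (frame-shifting) and 64921 passing single-nucleotide sites. RNA had been sequenced from shoot apices of 2 near isogenic lines (NILs) of Hordeum vulgare that differ in awn length, with 4 libraries per line. The lines are RM and RD in the sample labels and belong to the DM1-e35R NILs, and are named e35RM and e35RD below. The line e35RM carries the Morex allele at the awn length QTL AL7.1 and has long awns, and e35RD carries the allele of HID382, a wild barley of ssp. agriocrithon from Tibet, and has short awns. Both lines derive from 1 heterozygous recombinant of a heterozygous inbred family, in a background of Morex and wild barley in which the wild vrs1 allele is fixed, so that both are 2-rowed. All plants grew in a greenhouse with 16 h of light at 22 °C and 8 h of dark at 18 °C, received no treatment, and gave pools of 10 apices at Waddington stage W5.5. The lines differ by an introgression at 132.01 to 134.21 cM of the POPSEQ map, which the authors identified from RNA sequencing of these lines.

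A coding sequence is read in triplets, and an indel of any other length shifts every codon after it, whereas an indel of whole triplets removes or adds amino acids and leaves the rest of the protein as it was. In plant genomes, coding indels are therefore known to be rich in lengths that are multiples of 3, and short tandem repeats of triplets are a known source of them. Messenger RNAs can also differ by a few bases without any difference in DNA, where a pair of splice acceptor sites, each ending in AG, lie close together and both are used. Sites were listed by position in a transcript of the merged high-confidence and low-confidence (HC and LC) gene set, counted from 1 at the 5′ end. Transcripts named MLOC are gene models on the Morex assembly, and those named AK are full-length cDNAs, which come from another cultivar, Haruna Nijo. The coding sequence within each transcript and the genome coordinates were not used here, so whether a site is coding is not known for most of them, and "in-frame" refers to the length alone.

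The changed sequences are printed for the sites on which the results turn, with the base before the change in lower case and the inserted or deleted bases in capitals. The 5 sites at which e35RM and e35RD had opposite calls were 3 deletions and 2 insertions, shown because they separate the lines.
MLOC_62049.1, position 798, deletion: gCAA
AK374634, position 1026, deletion: cCAG
AK358955, position 753, deletion: aGATGTGAAC
MLOC_62051.5, position 654, insertion: tCCGGCG
AK249008.1, position 1042, insertion: aCGCCAC

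The deepest sites at which both lines gave reads of both alleles are shown because 4 of the 5 are rotations of 1 triplet, CAG.
AK375249, position 390, insertion: cCAG
MLOC_56942.2, position 619, deletion: gAGC
AK371348, position 670, deletion: tCAG
AK363729, position 1178, insertion: aAGC
MLOC_6803.3, position 151, insertion: gGAAACA

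The longest change and 4 sites made of whole copies of a triplet are shown as examples of length and of repeats.
AK367671, position 548, deletion: cGTGGGTTTATCGTCA
AK366021, position 108, deletion: aGCCGCCGCCGCC
AK372416, position 1307, deletion: tGCAGCAGCA
AK375065, position 420, deletion: aCAGCAGCAG
MLOC_54675.1, position 210, deletion: aCAGCAG

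Changes of 3 bases were the most frequent of all lengths, and counts stood above those of the neighbouring lengths at each multiple of 3 up to 12. Among the 1822 passing indels, 375 changed 1 base, 107 changed 2, 639 changed 3, 149 changed 4, 128 changed 5, 243 changed 6, 48 changed 7, 32 changed 8, 45 changed 9, 11 changed 10, 9 changed 11 and 34 changed 12. The longest was a deletion of 15 bases in AK367671. In-frame indels were thus 52.8% of passing indels (95% Clopper-Pearson interval 50.5 to 55.1, counting error only). The share was 60.5% (56.6 to 64.4) of the 628 indels in AK transcripts and 48.7% (45.9 to 51.6) of the 1194 in MLOC transcripts.

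**Figure D1:**
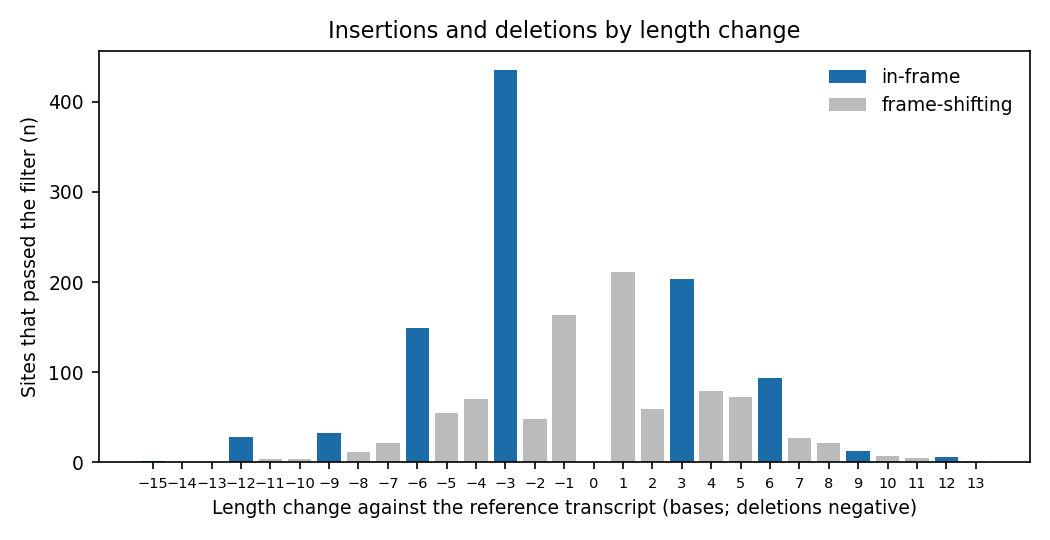
Number of passing indels (y axis) by length change in bases (x axis, deletions to the left of 0, insertions to the right), with in-frame lengths in blue and frame-shifting lengths in grey. Deletions of 3 bases are the tallest bar at 435 sites, against 204 insertions of 3 bases.

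Deletions from the reference transcript outnumbered insertions among in-frame indels and not among the others. Deletions were 645 of 962 in-frame indels, or 67.0% (64.0 to 70.0), and 377 of 860 frame-shifting indels, or 43.8% (40.5 to 47.2). The share was 68.1% (64.3 to 71.7) at 3 bases, 61.3% (54.9 to 67.5) at 6 bases, 71.1% (55.7 to 83.6) at 9 bases and 82.4% (65.5 to 93.2) at 12 bases. By comparison it lay between 43.0% and 47.0% at 1, 2, 4 and 5 bases. These intervals are descriptions, and no test was run between the classes. With the sites that had failed the filter included, deletions were 58.8% of in-frame indels.

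The bases gained or lost were rich in G and C, and 1 triplet stood out. G or C made up 62.9% of the 4203 bases changed by in-frame indels and 54.0% of the 2639 changed by frame-shifting ones. An indel inside a repeat can be written at any of several positions, so triplets were grouped with their rotations (CAG, AGC and GCA form 1 family), read along the transcript strand. The CAG family held 265 of the 639 changes of 3 bases, or 41.5% (37.6 to 45.4), of which 205 were deletions. The reverse complement family, CTG, held 12. The TAG family followed with 73 sites (11.4%), against 5 for its reverse complement, the ACT family. The AAG family had 48 sites and its reverse complement CTT 14. The GGT family, which holds no AG, had 22 sites and its reverse complement ACC 9. No such asymmetry was seen for CCG, with 29 sites, and its reverse complement CGG, with 25, or for GAG with 27 and CCT with 22. Of 323 longer members, 59 (18.3%) consisted of whole copies of 1 triplet, and among these the families CGG and CAG (14 sites each) and CCG (8 sites) led.

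In-frame indels lay from position 81 to position 3772 of their transcripts, with a median of 440.5 and quartiles of 197 and 897. Frame-shifting indels had a median of 281.5, and single-nucleotide sites one of 327. The lowest position of any indel with a single other allele, failed sites included, was 81, whereas 10843 of the 64921 passing single-nucleotide sites lay below it. In-frame indels in AK and MLOC transcripts had nearly equal medians, 441 and 440.5. The end of each transcript was not used here, so the distance from the 3′ end is not given. Most transcripts had a single member (850 of 904), while 50 had 2 and 4 had 3.

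Alleles in the lines were read at the 803 members, in 752 transcripts, that had at least 5 reads in each line. The other 159 members were not, and 17 of them had no call in either line. Read depth at the 803 sites was 5 at the lowest, 29 at the median and 110 at the highest in e35RM, and 5, 30 and 116 in e35RD. Shares of reads with an allele are of the reads counted for either allele (allele reads). These were a median of 95.5% of read depth, but 87.8% for changes of 9 bases and 76.4% for 12 bases. The table has 1 column per line and none per library, so each line gave 1 value per site, there is no error between replicates, and the intervals and tests cover the counting of reads alone.

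Most in-frame indels did not separate the lines. Both lines were homozygous for the other allele at 333 of 803 sites, or 41.5% (38.0 to 45.0). Both were called heterozygous, with reads of both alleles, at 309 sites, or 38.5% (35.1 to 41.9). Both were homozygous for the reference at 133 sites (16.6%), 1 line alone was heterozygous at 24 sites (2.99%), and the calls were opposite homozygotes at 4 sites (0.498%). Among 606 frame-shifting indels these shares were 34.0%, 48.7%, 10.2%, 7.10% and 0%, where 0 of 606 allows up to 0.607%. Among 38937 single-nucleotide sites they were 57.5%, 9.71%, 27.2%, 5.14% and 0.408%. By these shares heterozygous calls in both lines were rarer among in-frame than among frame-shifting indels, and more frequent in both than among single-nucleotide sites, with intervals that do not overlap and no test between the classes. In AK transcripts 48.6% (43.1 to 54.2) of members were non-reference in both lines, and in MLOC transcripts 36.6% (32.2 to 41.1). The part of the cultivar behind each reference in this was not tested. At the 133 sites reference in both lines, neither line was called with the other allele, so they became members through no call of these lines. The same holds for members without a call in either line. The deposited calls also hold a Morex sample, which was not used, so the source of that allele is not given.

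**Figure D2:**
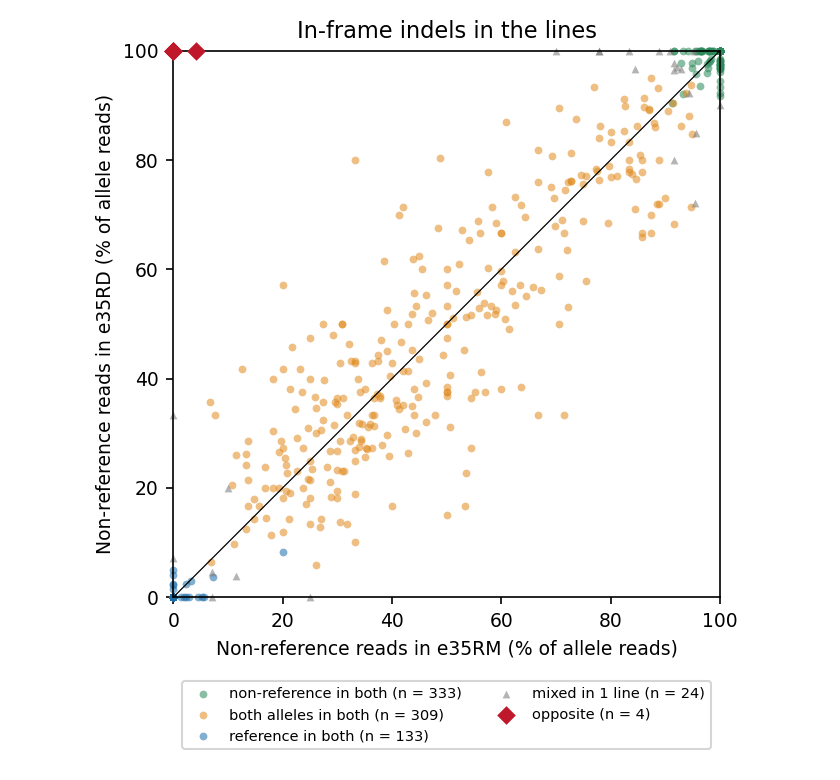
Percent of allele reads with the other allele in e35RM (x axis) and e35RD (y axis) at the 803 in-frame indels with at least 5 reads in each line, coloured by the calls, with the line of equal shares in black. The 4 sites with opposite calls (red diamonds, of which 3 lie on the same spot) are at 0 or 4.17% in e35RM and 100% in e35RD, and the heterozygous sites lie along the diagonal.

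At the deepest sites that were non-reference in both lines, almost every read counted for an allele carried the change. Part of the depth was counted for neither allele. In AK353988 the deletion had 52 reads at a depth of 84 in e35RM and 52 at 81 in e35RD. The deletion of 3 bases at position 408 of AK356601 was read in 109 of 109 allele reads in e35RM and 115 of 115 in e35RD. In AK250222.1, a deletion of 3 bases at position 188 had 87 reads beside 2 of the reference in e35RM, and 90 beside 3 in e35RD. The remaining 8 of the 10 deepest sites had at most 1 reference read in either line, among them the insertions in AK250267.1, MLOC_70693.3 and AK359220 and the deletions of 6 bases in AK353988 and MLOC_38762.1. Both lines thus shared these alleles against the reference transcript, in a background they have in common. The longest such changes were shallower, as in AK366021, where a deletion of 12 bases made of 4 copies of a triplet had 12 allele reads in e35RM and 11 in e35RD, all with the deletion.

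Sites at which both lines matched the reference were more often long. They were 12.5% (9.82 to 15.6) of changes of 3 bases and 24.4% (18.7 to 30.8) of changes of 6 bases. Whole copies of a triplet made up 24 of the 66 members over 3 bases that were reference in both lines (36.4%, 24.9 to 49.1), 26 of 121 that were non-reference in both (21.5%, 14.5 to 29.9) and 1 of 68 with both alleles in both (1.47%, 0.0372 to 7.92). AK372416 gave 2 of the deepest sites. Its deletion of 3 copies of GCA at position 1307 had 65 reference reads in e35RM and 64 in e35RD and no read of the deletion, and its deletion of 12 bases at position 1449 had 2 such reads in each line beside 60 and 66 of the reference. In MLOC_54675.1, 1 of 75 allele reads in e35RM and 0 of 84 in e35RD carried the deletion.

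Heterozygous calls in both lines varied with the length of the change. They made up 45.0% (40.7 to 49.3) of changes of 3 bases, 26.8% (20.9 to 33.3) at 6 bases, 22.6% (9.59 to 41.1) at 9 bases and 19.2% (6.55 to 39.4) at 12 bases. Frame-shifting changes of 4, 5, 7 and 8 bases stood higher, at 69.8%, 76.0%, 78.0% and 18 of 24 sites, and those of 1 and 2 bases at 28.4% and 20.6%. In numbers, 56 heterozygous sites of 6 bases stood beside 79 of 5 bases, and 95 sites of 6 bases were non-reference in both lines.

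**Figure D3:**
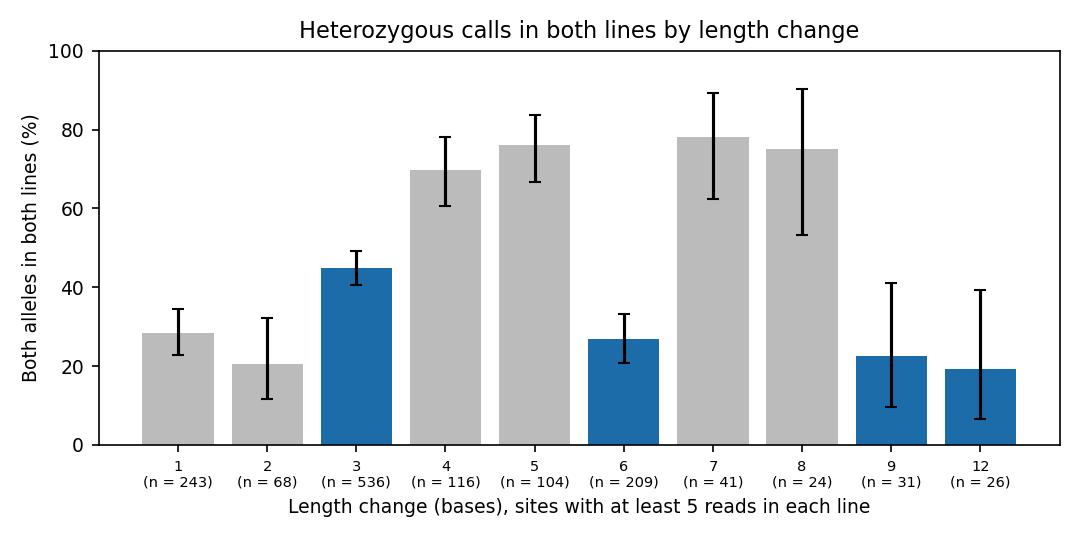
Percent of indels called heterozygous in both lines (y axis) by length change (x axis), with 95% Clopper-Pearson intervals as error bars, in-frame lengths in blue and frame-shifting lengths in grey. The bars at 4, 5, 7 and 8 bases stand at 69.8% to 78.0%, above the in-frame bar at 3 bases (45.0%) and those at 6, 9 and 12 bases (19.2% to 26.8%).

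The triplet that was gained or lost also went with the calls. In the CAG family both lines were heterozygous at 167 of 236 sites, or 70.8% (64.5 to 76.5), and in the TAG family at 39 of 65 (interval 47.1 to 72.0%). The AAG family stood at 14 of 41 (34.1%, 20.1 to 50.6) and the GAG family at 2 of 22 (9.09%, 1.12 to 29.2). All other families together reached 19 of 172, or 11.0% (6.78 to 16.7). Seen from the other side, CAG or TAG made up 206 of the 241 heterozygous changes of 3 bases (85.5%, 80.4 to 89.7), 82 of the 212 that were non-reference in both lines (38.7%, 32.1 to 45.6) and 6 of the 67 that were reference in both (8.96%, 3.36 to 18.5). Insertions of the CAG family were heterozygous at 48 of 56 sites (85.7%) and deletions at 119 of 180 (66.1%), and for TAG these counts were 16 of 17 and 23 of 48.

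Longer heterozygous changes shared the letters AG with these triplets. The bases gained or lost were searched for AG with their last base joined to their first, since the point at which the change is written is arbitrary. AG was found in 50 of 56 heterozygous changes of 6 bases (89.3%, 78.1 to 96.0), 44 of 95 that were non-reference in both (46.3%, 36.0 to 56.8) and 19 of 51 that were reference in both (37.3%, 24.1 to 51.9). The letters were chosen after the triplets above were seen, so changes of 3 bases are left out here. Among frame-shifting changes of 4 or 5 bases the shares in the same order were 85.0% (78.5 to 90.1), 40.7% (22.4 to 61.2) and 15.8% (3.38 to 39.6). At 7 or 8 bases AG was found in 41 of 50 heterozygous changes (82.0%), 5 of 10 non-reference ones and 3 of 3 reference ones. A match of 2 letters is a description of the sequence, and the source of the reads of both alleles was not tested.

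The share of reads with the other allele at the 309 heterozygous in-frame sites, with the reads of both lines pooled, ran from 6.67% to 94.3%, with a median of 43.3% and quartiles of 30.5% and 65.5%. It lay between 40% and 60%, around the equal share of a heterozygous plant, at 81 sites (26.2%, 21.4 to 31.5). The 295 heterozygous frame-shifting sites had a median of 30.2%. The insertion in AK375249 was near the upper end, with 65 of 71 allele reads in e35RM (91.5%) and 67 of 74 in e35RD (90.5%). The deletion in MLOC_56942.2 had 69 of 89 reads in e35RM (77.5%) and 71 of 91 in e35RD (78.0%). In AK371348 the deletion was the lesser allele, with 30 of 88 reads in each line. The insertion of 6 bases in MLOC_6803.3 had 24 of 85 reads in e35RM (28.2%) and 20 of 84 in e35RD (23.8%).

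The lines resembled each other at these sites. The share of the other allele differed between e35RM and e35RD by a median of 7.14 percentage points and by more than 20 points at 31 of 309 sites. The largest difference, 46.7 points at position 174 of AK359835, rested on 2 of 6 allele reads in e35RM and 4 of 5 in e35RD. Across the 309 sites the shares in the lines had a Pearson correlation of 0.86, given as a description, since the sites share libraries and were chosen as heterozygous in both. Allele depths were compared per site (Fisher's exact test, two-sided, Benjamini-Hochberg adjustment over 40346 sites). None of the 309 sites passed an adjusted p of 0.05, and 6 (1.94%, 0.716 to 4.18) had an unadjusted p below 0.05. The share over all sites tested, 0.592%, is not comparable. Most of those sites were homozygous for the same allele in both lines, where the test can hardly give a small p.

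Single-nucleotide sites of the same transcripts were heterozygous about as often as single-nucleotide sites at large, and more often close to the indel. They were heterozygous more often than those in transcripts of members non-reference in both lines (3.32%) or reference in both (1.95%). Of the 309 heterozygous members, 159 had such a site that both lines covered with 5 or more reads, and of the 610 sites found 10.5% (8.17 to 13.2) were heterozygous in both lines, against 9.71% of all 38937 single-nucleotide sites, 52.8% non-reference in both and 34.1% reference in both. Every neighbouring site was homozygous for 117 of these 159 members (73.6%, 66.0 to 80.3), and for 79 of the 99 of the CAG and TAG families (79.8%, 70.5 to 87.2). The same held for 84.5% of 233 members non-reference in both lines and 88.4% of 112 reference in both. Within 100 bases of the indel, 27.2% (18.4 to 37.4) of 92 sites were heterozygous in both lines. This share was 2.29% around members non-reference in both lines and 2.86% around those reference in both. For members non-reference in both lines 78.3% (76.0 to 80.4) of 1414 neighbouring sites were also non-reference in both, against 57.5% of all single-nucleotide sites. For those matching the reference, 75.7% (72.3 to 79.0) of 668 sites did too, against 27.2% of all. Sites of 1 transcript are not independent of each other, so the intervals are too narrow.

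At 24 members 1 line was heterozygous and the other homozygous, 16 times e35RM and 8 times e35RD. The share of the other allele differed by at most 33.3 percentage points, at position 1384 of MLOC_51059.7, where 0 of 8 reads in e35RM and 3 of 9 in e35RD carried a deletion of 6 bases. None of the 24 passed the test, and the smallest unadjusted p was 0.053. AK367671, the site with the longest deletion, was among them, with 8 of 9 reads in e35RM and 9 of 9 in e35RD.

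Opposite homozygous calls were found at 4 members among those covered by 5 or more reads in both lines, and e35RD carried the other allele at all of them. Over all 40346 sites 0.404% had opposite calls, and 0.263% had them with e35RD as the non-reference line. The allele depths differed at 3 of the 4, and at no other member, against 0.131% of all sites in either direction and 0.129% with more non-reference reads in e35RD. Of the 606 passing frame-shifting indels with a single other allele and this depth, none had opposite calls or passed the test, and 12 had an unadjusted p below 0.05. This covers the listed sites alone. The frame-shifting change that the authors reported in their zinc finger candidate gene is not among them. They described a polymorphism there in the variant calling and then sequenced the gene by the Sanger method.

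**Figure D4:**
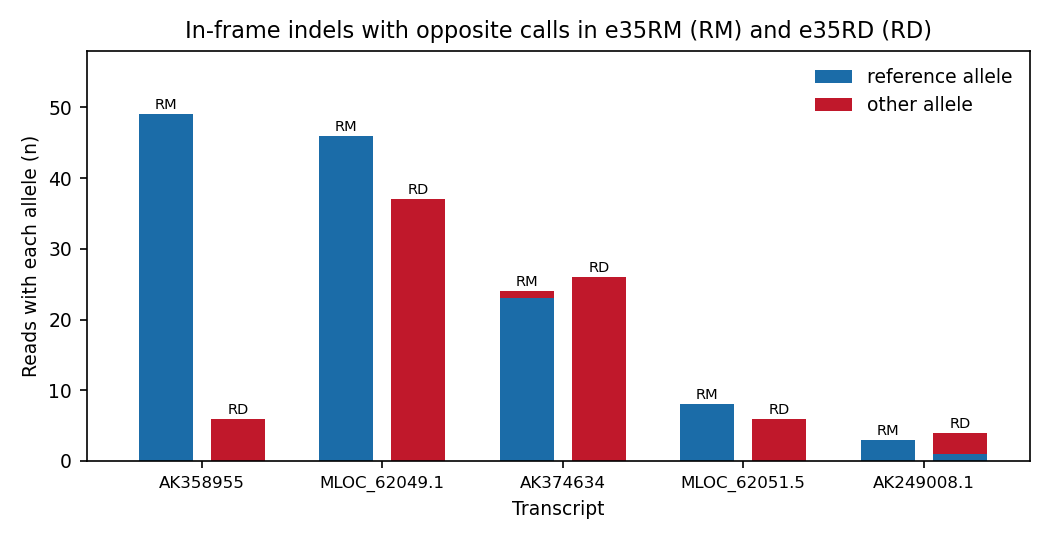
Reads with the reference allele (blue) and the other allele (red) in e35RM (RM, left bar) and e35RD (RD, right bar) at the 5 in-frame indels with opposite calls, each bar 1 value per line. The bars of AK358955 are 49 and 6 reads, while those of the other 4 sites are closer in height, and AK249008.1 rests on 3 and 4 reads.

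In MLOC_62049.1, annotated by the authors as an unknown protein, all 46 allele reads of e35RM had the reference and all 37 of e35RD the deletion of CAA at position 798 (adjusted p = 4.3e-21, Fisher's exact test). Read depth was 52 and 44. Of 6 single-nucleotide sites in this transcript that both lines covered with 5 or more reads, 5 had opposite calls, all with e35RD as the non-reference line, and the last was heterozygous in e35RD at 6 reads. AK374634, annotated as an F-box family protein, a family whose members pick proteins for breakdown, had 23 reference reads and 1 deletion read in e35RM and 26 deletion reads alone in e35RD at position 1026 (adjusted p = 2.2e-10, Fisher's exact test). The genotype quality of the e35RM call was 15, the lowest of any call at these 4 sites. The triplet lost is CAG, the family that was most often heterozygous, but here the deletion made up 4.17% (0.105 to 21.1) of the reads in e35RM and 100% (86.8 to 100) in e35RD. Of its 9 single-nucleotide sites at this depth, 6 had opposite calls with e35RD non-reference and 3 matched the reference in both lines.

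AK358955, annotated as a putative bromodomain protein, a class that binds acetylated histones, lost 9 bases at position 753. All 49 reads of e35RM had the reference and all 6 of e35RD the deletion (adjusted p = 2.7e-05, Fisher's exact test). Its depth ratio of e35RM over e35RD, 3.03 on the log2 scale, was the highest of all 803 members. The next highest was 1.22, in MLOC_7420.1, the lowest -1.38, in MLOC_44118.2, and the median 0.00 (95% of members between -0.74 and 0.70). The 3 single-nucleotide sites of AK358955 that both lines covered with 5 or more reads had 59 to 75 reads in e35RM and 55 to 63 in e35RD, and 2 of them had opposite calls. Depth also varied with length and call in other members. At sites that were non-reference in both lines, depth was 96.6% of the median single-nucleotide site of the transcript for 3 bases, 83.7% for 6 bases and 30.3% for 9 or more bases (20 members), whereas sites matching the reference stood at 109%, 97.1% and 103% and heterozygous ones at 102%, 89.8% and 108%. The transcript was not placed on the map by the authors.

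MLOC_62051.5 and AK249008.1, both annotated as heavy metal transport and detoxification proteins, gained 6 bases in e35RD. In MLOC_62051.5 the 8 reads of e35RM had the reference and the 6 of e35RD the insertion at position 654, which did not pass the test (unadjusted p = 3.3e-04, adjusted p = 0.23, Fisher's exact test). Its 5 single-nucleotide sites with 5 or more reads in both lines all had opposite calls with e35RD non-reference. In AK249008.1, 3 reference reads in e35RM stood against 1 reference and 3 insertion reads in e35RD at position 1042, fewer than 5 reads in each line, so that no test was made. There, 4 of 6 single-nucleotide sites at this depth had opposite calls. The transcripts share their annotation and their best hits in other grasses, and whether they share reads was not tested. None of their single-nucleotide sites at this depth was heterozygous in either line. The marker 2_0483, which the authors typed by a difference in size, lies in AK249008.1.

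Of the 40344 transcripts with a listed site 904 had a member. The authors' list for the segregating region holds genes whether or not they have a listed site, so its count is not comparable. Of its 123 genes 5 had a member. These were MLOC_62049.1, AK374634, MLOC_62051.5, AK249008.1 and MLOC_14928.3, an NB-ARC disease resistance protein, a class of pathogen receptors, whose deletion of 3 bases at position 2845 had no read in either line. The 4 of them with reads all had opposite calls, as had AK358955, which is not on this list. The authors identified this region by RNA sequencing of the same lines, so opposite calls in its genes are no independent result. All of the sites with opposite calls except that in AK249008.1 were listed by the authors with an effect on the protein, so they were counted as coding there.

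The transcripts with the most members differed in the calls at these. Of them, MLOC_64453.1 alone had members fixed in both lines beside one heterozygous in both. It had deletions of 6 bases at positions 269 and 283. At 269, 47 of 54 reads in e35RM and 50 of 56 in e35RD had the deletion, while at 283 it was found in 57 of 57 and 57 of 58. In AK376217 an insertion of 3 bases at position 772 was nearly absent (1 of 45 reads in e35RM, 0 of 50 in e35RD), and a deletion of 3 bases at position 894 was in all 46 and 55 reads. MLOC_74919.8 was heterozygous in both lines at all 3 of its members, at positions 338, 896 and 1052. In AK375065 insertions of the CAG family at positions 786 and 914 had 35.4% and 78.0% of reads in e35RM and 27.1% and 86.2% in e35RD, and the deletion of 9 bases at position 420 had 91.7% in e35RM and 80.0% in e35RD, on 12 and 10 allele reads. AK369041 had deletions of the same family at positions 328 and 1784, with 40.3% and 23.8% in e35RM and 50.0% and 27.3% in e35RD.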

How the data were processed

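The authors trimmed single-end reads (Trimmomatic), aligned them to the merged HC and LC gene set (Bowtie2), removed duplicates (Picard) and called and filtered variants with GATK. The table has 1 column of calls per line, and how the libraries of a line were combined is not given in the sources used here. In the deposited table, read depth and allele depth are counts of reads without normalization, and genotype quality is a phred-scaled score of the authors' caller. A filter for clusters of SNPs, failed by 952 of 2809 indels with a single other allele, is not named in the methods. Calls written as dates and allele depths that had lost their last zeros were decoded, for indels by the genotype likelihoods (66 allele depths of members in e35RM and 61 in e35RD had several readings). The decoding was tested on simulated data whose likelihoods followed the rule used to decode them, so that test says little about the real ones. It was also checked against the authors' table, where 1980 of 1997 rows were found and 1977 were equal, among them 57 of 57 indels. How many of these indels had several readings is not given. The 5 columns of a Morex sample outside the series were not used. A transcript ID was matched in the RefSeq gene table for 0 members.

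Sites with at least 5 reads in each line were compared by Fisher's exact test (SciPy 1.17.1) with Benjamini-Hochberg adjustment (statsmodels 0.14.6) at 0.05. Shares of called sites also required non-reference shares of at most 10% in 1 line and at least 90% in the other. Named sites were all with opposite calls, a passed test or a place in the region list, the 10 longest and 10 deepest non-reference ones, the 5 deepest heterozygous and the 5 deepest reference ones, and the 5 transcripts with most members, and others were named after their values were seen. Members and lists were chosen with earlier results of these data known. Alternatives varied depth, quality, filter, calls, lengths and adjustment. Tissue markers could not be checked, since the table holds no expression values.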

Additional observations from a re-analysis of the deposited data

How the results depend on the processing

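Of 70 values recomputed under alternatives, 45 stayed near the value reported and 25 did not. Near meant within its 95% interval, or within 1.5 times for counts. For the depth ratio it meant within a standard deviation across sites, a wide limit. The cause was not tested, and the uneven reach of the quality cutoffs is described below. Sites non-reference in both lines, 41.5% of members, were 37.1% at a depth of at least 20, 29.9% at a genotype quality of at least 60, 46.3% with allele shares of 0.2 and 0.8 in place of calls and 45.3% for changes of 6 or more bases. Sites heterozygous in both lines, 38.5%, were 34.8% at a depth of at least 1, 42.2% at a depth of at least 20 and at a quality of at least 20, 53.9% at a quality of at least 60, 25.4% with allele shares of 0.2 and 0.8, 45.0% for changes of 3 bases and 25.5% for longer ones. The order of these first 2 states turned at a depth of at least 10 (40.2% against 40.3%) or 20. It also turned at a quality of at least 20 (38.9% against 42.2%) or 60 and for changes of 3 bases (39.6% against 45.0%). Quality cutoffs reach the calls unevenly. A homozygous call gained about 3 per allele read (18 at 6 reads in e35RM for AK249926.1), while a heterozygous one reached 99 at a depth of 5 (MLOC_10223.2, e35RM). A quality of at least 60 kept 285 of 309 sites heterozygous in both lines and 158 of 333 non-reference in both. Sites matching the reference, 16.6%, were 12.5% for changes of 3 bases and 24.7% for longer ones. The 4 sites with opposite calls were 2 at a depth of at least 10 or 20, 1 at a quality of at least 20 or 60, and 2 each for changes of 3 bases and of 6 or more. The 3 sites that passed the test were 2 at a depth of at least 10, without AK358955, and 3 with adjustment over the 1409 indels alone. In-frame indels were 44.0% of all indels with failed sites included and 57.0% at a depth of at least 5, against 52.8%, and deletions were 58.8% of in-frame indels with failed sites. Single-nucleotide sites within 100 bases shared the heterozygous state in 27.2%, against 10.5%, and the reference state in 81.9%, against 75.7%. CAG or TAG in heterozygous changes of 3 bases, 85.5%, fell to 75.8% with failed sites and lay between 84.6% and 89.0% in the other 8 alternatives, which, like those of the depth ratio, were chosen after seeing the data. No paired analysis was possible because the table has 1 column per line, which also leaves no replicate to leave out.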

Other observations

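Pairs of frame-shifting indels in 1 transcript can together restore the frame. There were 17 transcripts with 2 or more passing frame-shifting indels at 5 or more reads in each line. In 8 transcripts, 9 pairs had length changes that sum to a multiple of 3 and the same calls, 7 of them heterozygous in both lines and 2 non-reference in both. The pairs lay 71 to 1131 bases apart, and those of AK356550 shared the deletion at position 225. The number of all pairs is not given, and neither an excess of such pairs nor their presence on the same molecules was tested. In MLOC_49178.1 an insertion of 1 base at position 270 and a deletion of 1 base at position 605 were non-reference in every allele read of both lines, on 9 and 8 reads in e35RM and 6 and 8 in e35RD. In MLOC_53907.2 deletions of 2 bases at position 431 and of 1 base at position 599 were likewise fixed, on 19 and 32 reads in e35RM and 28 and 31 in e35RD. Frames and coding ends of these transcripts were not used here.

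A site outside the rule, because it has 2 other alleles, was called reference in e35RM at 54 reads and homozygous for an insertion of 6 bases in e35RD at 35 reads, at position 627 of MLOC_38856.2. It was 1 of 8 passing sites with several other alleles, all multiples of 3, and at least 5 reads in each line, and its allele depths were not decoded.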
